A study of Mus musculus with 10 samples.

Results

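Auh, Ror2, Sema4d, Sfxn1, Hrh2 and Simc1 are 6 genes that lie close to Nfil3 on mouse chromosome 13. They were taken as every probe set annotated to just 1 of these symbols, which gave 7 probe sets of the 28853 on the array (2 for Sema4d) and 6 of 19938 measured genes. Auh was chosen by its measured level in the cells that lack Nfil3, and the other 5 by their place near Nfil3 with their levels in all genotypes known. Values in those cells are therefore described here without a test, and the tests given for other comparisons are not independent of the choice. Total RNA of sorted splenic cDC1s, the cross-presenting conventional dendritic cells, was measured on 10 Affymetrix arrays. The groups were Nfil3 Zeb2 DKO (n = 2), Zeb2 Id2 DKO (n = 2), Zeb2 KO (n = 3) and WT (n = 3), so that each mutant group shares the loss of Zeb2. Strain, age, sex, the source of the Nfil3 allele, the Cre driver if any, and whether replicates came from separate animals are not given in the sources used here. The p-values thus cover the spread among these arrays alone, which may be technical.

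Nfil3 is a basic leucine zipper repressor that dendritic cell progenitors need to become cDC1s, and the loss of the repressor Zeb2 lets cDC1s form without it. A targeted allele can affect genes beside it, and DNA of the embryonic stem cell strain can stay attached to it through backcrossing. Neither was tested here, and the neighbours of Nfil3 are described by their place and level across the 4 genotypes.

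On the RefSeq assembly GRCm38.p6, the start site of Auh lies 51.4 kb from that of Nfil3. Both genes are on the minus strand, so Auh is downstream of Nfil3 in the direction of transcription, and no other measured gene lies between them. The promoters below (250 bases before the start site and 50 after it, RefSeq GRCm38.p6) belong to this pair and to the members that changed between Zeb2 Id2 DKO and WT. Capitals mark the E-box CAGCTG, a site type bound by E proteins, which Id2 inhibits. Whether this site bears on the level of any gene here was not tested.
Auh, minus strand, chr13:52929628-52929927: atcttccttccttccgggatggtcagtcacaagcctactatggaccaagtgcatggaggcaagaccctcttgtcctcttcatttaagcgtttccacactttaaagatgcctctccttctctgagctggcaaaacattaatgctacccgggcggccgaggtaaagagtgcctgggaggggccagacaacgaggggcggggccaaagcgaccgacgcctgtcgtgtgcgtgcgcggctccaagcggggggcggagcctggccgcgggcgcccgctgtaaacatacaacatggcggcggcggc
Nfil3, minus strand, chr13:52980990-52981289: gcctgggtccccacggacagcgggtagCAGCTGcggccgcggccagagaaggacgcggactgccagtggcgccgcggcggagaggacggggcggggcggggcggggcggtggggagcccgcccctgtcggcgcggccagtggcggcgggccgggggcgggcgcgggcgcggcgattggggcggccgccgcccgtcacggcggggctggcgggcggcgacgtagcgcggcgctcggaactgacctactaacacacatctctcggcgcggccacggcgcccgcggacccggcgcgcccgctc
Sema4d, minus strand, chr13:51756634-51756933: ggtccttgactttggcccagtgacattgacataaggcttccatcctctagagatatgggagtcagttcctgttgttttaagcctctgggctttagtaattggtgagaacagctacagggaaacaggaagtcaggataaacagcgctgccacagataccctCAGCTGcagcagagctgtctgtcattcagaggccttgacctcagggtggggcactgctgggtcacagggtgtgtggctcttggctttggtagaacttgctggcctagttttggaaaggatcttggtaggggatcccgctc
Simc1, plus strand, chr13:54503555-54503854: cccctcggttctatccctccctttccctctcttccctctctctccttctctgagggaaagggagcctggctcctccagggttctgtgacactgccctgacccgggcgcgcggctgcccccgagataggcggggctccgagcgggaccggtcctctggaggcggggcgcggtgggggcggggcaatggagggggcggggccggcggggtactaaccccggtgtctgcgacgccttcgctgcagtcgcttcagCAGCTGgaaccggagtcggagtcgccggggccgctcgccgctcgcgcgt

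The Auh and Nfil3 promoters are rich in G and C (60.7% and 81.7%), and so is that of Simc1 (71.7%), against 52.0% for the Sema4d start shown. The NFIL3 site, searched as TTACGTAA or TTATGTAA on both strands, had 0 matches in the 10 promoters of the 6 genes and Nfil3, and 1.06% of all 32851 promoters held one. The E-box CAGCTG was found once in the Nfil3 window, in 1 of 3 starts of Sema4d (the start shown), in Simc1 and in Sfxn1, and 16.3% of all promoters held it. Sfxn1, whose promoter is not shown, had a log2 difference of -0.06 between Zeb2 Id2 DKO and WT (limma adjusted p = 0.944). In Simc1 it begins at base 2 after the start site, and in Sema4d at base -90. The related E-box CAGGTG, which ZEB proteins also bind, had 0 matches in these 10 windows, against 20.2% of all promoters on either strand.

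The deletion of Nfil3 was visible in its own probe set, which read 6.20 and 7.09 log2 in Nfil3 Zeb2 DKO arrays, against 9.98 to 10.77 across the other 8 arrays, with both ends in WT. Id2 read 5.01 and 4.98 in Zeb2 Id2 DKO arrays and 9.89 to 10.50 elsewhere. The Zeb2 probe set did not fall in the groups labelled as lacking Zeb2 (6.24 to 6.46 in Nfil3 Zeb2 DKO, 6.78 to 6.82 in Zeb2 Id2 DKO, 5.40 to 6.27 in Zeb2 KO and 5.93 to 6.30 in WT), so it did not check that deletion. The cDC1 markers Xcr1 (11.36 to 11.78), Clec9a (11.60 to 11.96) and Irf8 (12.42 to 12.71) were high on every array. Other cDC1 markers varied more. Itgae read 9.76 and 9.86 in Nfil3 Zeb2 DKO, below the other 8 arrays (9.97 to 11.08), as did 2.78% of all genes. Cadm1 read 10.45 and 10.28 in Zeb2 Id2 DKO, against 10.89 to 11.26 elsewhere. The median intensity per array was 76.3 to 82.9, and Zeb2 KO replicate 3 stood apart from the other 2 Zeb2 KO arrays (r = 0.986 with each, against 0.996 between those 2 and 0.994 to 0.997 within the other groups).

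Auh, the mitochondrial hydratase of leucine breakdown that also binds AU-rich RNA, was higher in both arrays without Nfil3. It read 8.95 and 9.01 log2 in Nfil3 Zeb2 DKO. It read 7.74 and 7.71 in Zeb2 Id2 DKO, 7.78, 7.64 and 6.85 in Zeb2 KO, and 7.66, 7.68 and 7.87 in WT. The Nfil3 Zeb2 DKO arrays did not overlap with any of the other 8, and the gap between them was 1.08 log2. The remaining 3 genotypes overlapped one another, with Zeb2 KO replicate 3 as the lowest array.

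In size, Auh stood 2.94-fold higher in Nfil3 Zeb2 DKO than in Zeb2 KO (log2 1.56 [1.08 to 2.04]), the comparison in which the labelled genotypes differ by Nfil3 alone. It was 2.38-fold higher than in Zeb2 Id2 DKO (log2 1.25 [0.73 to 1.78]) and 2.37-fold higher than in WT (log2 1.24 [0.76 to 1.72]), with brackets holding 95% intervals of the limma fit. These comparisons share the 2 Nfil3 Zeb2 DKO arrays. Against the mean of the 3 other genotypes the log2 difference was 1.35 [0.93 to 1.77], and it lay between 1.26 and 1.41 with any array left out. Without Zeb2 KO replicate 3 the difference from Zeb2 KO was 1.27.

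Among all 19938 genes, the Auh difference between Nfil3 Zeb2 DKO and Zeb2 KO was rank 2 from the top. It was rank 7 against WT, rank 27 against Zeb2 Id2 DKO and rank 6 against the mean of the other genotypes. Both Nfil3 Zeb2 DKO arrays lay outside the range of the other 8 arrays in 1279 genes, or 6.41% of all genes (3.63% above and 2.78% below). In that set Nfil3 itself was the only gene with a wider gap than Auh. Auh was chosen by its level in Nfil3 Zeb2 DKO, so its ranks and gap describe that choice and are no test. In comparisons without the Nfil3 deletion, Auh did not pass the test: its log2 difference was -0.31 [-0.74 to 0.11] between Zeb2 KO and WT (limma adjusted p = 0.808) and -0.01 [-0.49 to 0.47] between Zeb2 Id2 DKO and WT (limma adjusted p = 0.998).

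**Figure D1:**
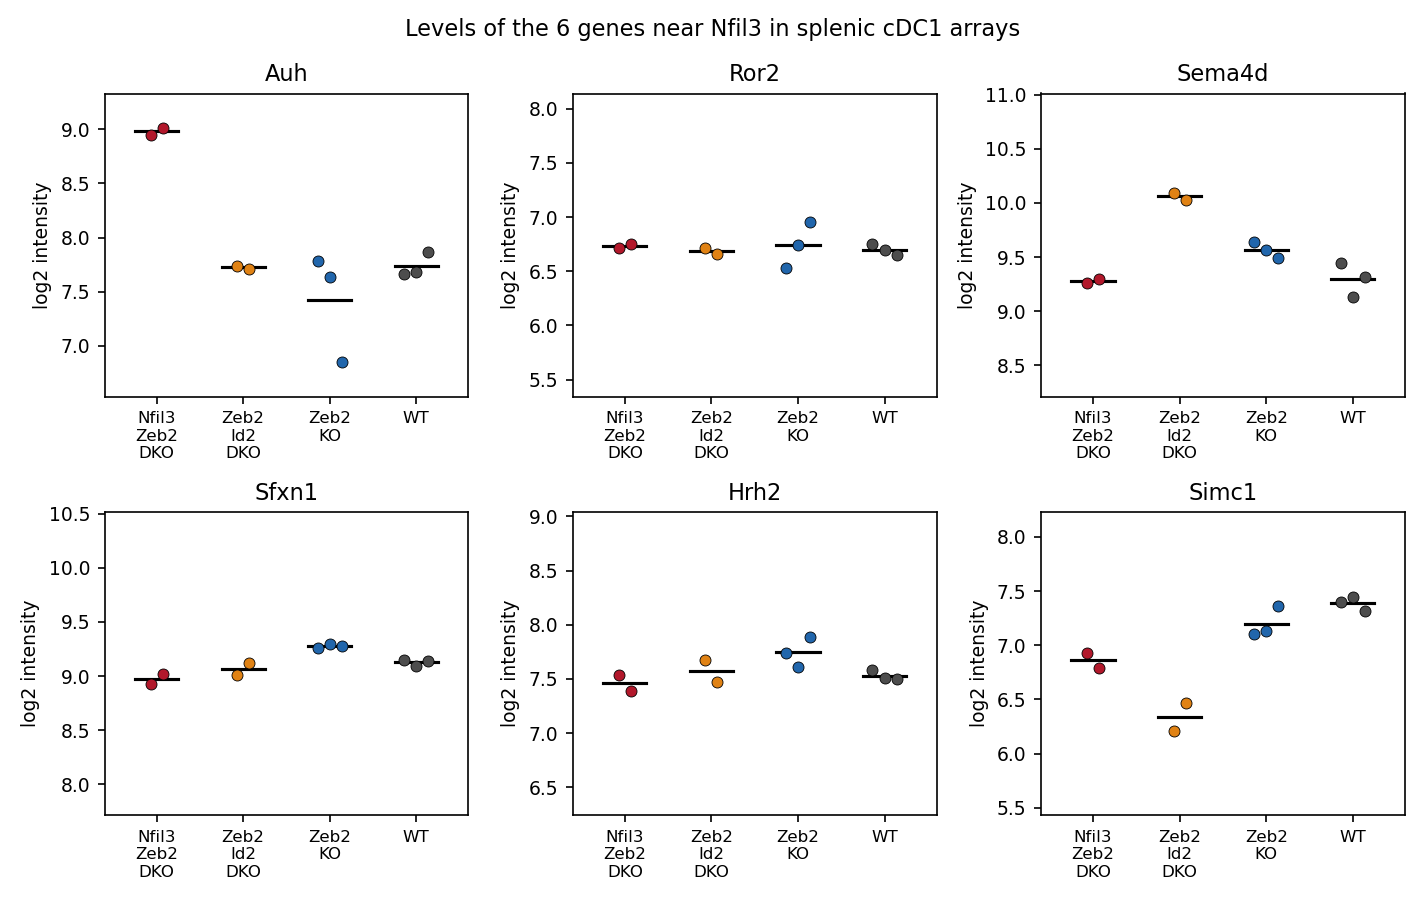
Log2 intensity (vertical axes, each spanning the same width) of Auh, Ror2, Sema4d, Sfxn1, Hrh2 and Simc1 in Nfil3 Zeb2 DKO, Zeb2 Id2 DKO, Zeb2 KO and WT, with a point per array and a bar at the group mean. Auh stands at 8.95 and 9.01 in Nfil3 Zeb2 DKO, above all other arrays, while Sema4d is highest and Simc1 lowest in Zeb2 Id2 DKO.

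Ror2, a receptor tyrosine kinase for Wnt5a and the nearest measured gene on the other side of Nfil3, overlapped between all groups. It read 6.71 and 6.75 in the Nfil3 Zeb2 DKO arrays, 6.71 and 6.66 in Zeb2 Id2 DKO, 6.53, 6.74 and 6.95 in Zeb2 KO, and 6.75, 6.70 and 6.65 in WT. Its log2 difference between Nfil3 Zeb2 DKO and the mean of the other genotypes was 0.02 [-0.20 to 0.24]. Thus the neighbours on the 2 sides of Nfil3, each 1 place away in gene order, read differently in the same arrays. Their distances in bases are unlike, with start sites at 52929677 (Auh), 52981039 (Nfil3) and 53286124 (Ror2). Ror2 also read near the level of the Nfil3 probe set in Nfil3 Zeb2 DKO (6.20 and 7.09). Whether Ror2 was above background is not known, so its flat reading does not show that this side is unaffected.

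Sfxn1, a mitochondrial serine transporter 5 places from Nfil3, read 8.93 and 9.02 in Nfil3 Zeb2 DKO, against 9.26, 9.30 and 9.28 in Zeb2 KO. The arrays of these groups did not overlap, at a log2 difference of -0.30 [-0.47 to -0.13]. With so few arrays many genes can separate 2 groups, and the share of all genes that do was not counted. Its levels were 9.01 and 9.12 in Zeb2 Id2 DKO and 9.15, 9.09 and 9.14 in WT, and the lower of the Zeb2 Id2 DKO arrays overlapped with Nfil3 Zeb2 DKO. Hrh2, a histamine receptor that raises cyclic AMP, read 7.54 and 7.39 in Nfil3 Zeb2 DKO, against 7.74, 7.61 and 7.89 in Zeb2 KO. Its levels were 7.67 and 7.47 in Zeb2 Id2 DKO and 7.58, 7.51 and 7.50 in WT, so that all groups but Zeb2 KO overlapped with Nfil3 Zeb2 DKO. For both genes the mean was highest in Zeb2 KO, and the differences of Zeb2 KO from WT did not pass (Sfxn1 0.15, adjusted p = 0.682; Hrh2 0.22, adjusted p = 0.646, limma).

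Sema4d, a transmembrane semaphorin that signals to plexin B receptors and Cd72, rose in cells without Id2. On its brighter probe set it read 10.09 and 10.03 in Zeb2 Id2 DKO, against 9.45, 9.13 and 9.32 in WT. The rise was 1.69-fold (log2 0.76 [0.54 to 0.99], limma adjusted p = 0.00568). Against the Zeb2 KO arrays (9.64, 9.57 and 9.49), the difference of Zeb2 Id2 DKO was 0.49 [0.27 to 0.72] and did not pass (limma adjusted p = 0.0861). Zeb2 Id2 DKO and WT differ by both Zeb2 and Id2. Zeb2 KO was itself 0.27 [0.07 to 0.47] log2 above WT, which did not pass either (limma adjusted p = 0.5). In Nfil3 Zeb2 DKO the brighter probe set read 9.26 and 9.30, within the WT range, and 0.28 log2 under the Zeb2 KO mean (-0.28 [-0.51 to -0.06]).

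The dimmer Sema4d probe set did not move with the brighter one. It read 6.65 and 6.71 in Zeb2 Id2 DKO, against 6.95, 6.72 and 6.82 in WT, a log2 difference of -0.15. In Nfil3 Zeb2 DKO it read 6.75 and 6.72, and in Zeb2 KO 6.64, 6.98 and 6.54. With the mean of both probe sets the Sema4d difference between Zeb2 Id2 DKO and WT was 0.31 and did not pass (limma adjusted p = 0.265). The call was also lost without Zeb2 Id2 DKO replicate 1 (limma adjusted p = 0.0741) or replicate 2 (0.0587).

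**Figure D2:**
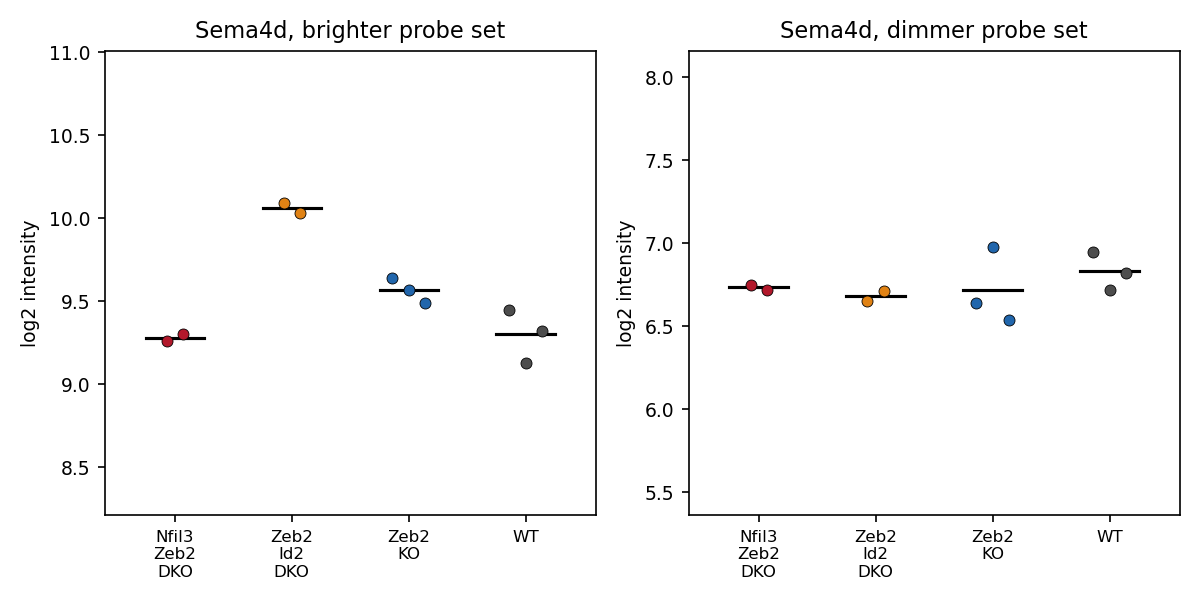
Log2 intensity (vertical axes) of the 2 Sema4d probe sets in Nfil3 Zeb2 DKO, Zeb2 Id2 DKO, Zeb2 KO and WT, with a point per array and a bar at the group mean. The brighter set is highest in Zeb2 Id2 DKO (10.09 and 10.03), whereas the dimmer set stays between 6.54 and 6.98 on all arrays.

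Simc1, whose human protein binds SUMO and recruits the SMC5/6 complex, fell in cells without Id2. It read 6.21 and 6.47 in Zeb2 Id2 DKO, against 7.40, 7.45 and 7.32 in WT. This was 2.07-fold lower (log2 -1.05 [-1.30 to -0.80], limma adjusted p = 0.00157). Against Zeb2 KO, which read 7.10, 7.13 and 7.36, the fall was 1.81-fold (log2 -0.86 [-1.10 to -0.61], limma adjusted p = 0.00784). No array of Zeb2 Id2 DKO overlapped with either of these groups, and the share of all genes separated in this way was not counted. The difference from Zeb2 KO no longer passed without Zeb2 Id2 DKO replicate 1 (limma adjusted p = 0.117) or with only those 2 groups fitted (limma adjusted p = 0.13), while that from WT passed with any array left out.

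Simc1 in Nfil3 Zeb2 DKO lay between those levels, at 6.93 and 6.79. These arrays were below all WT and Zeb2 KO arrays and above both Zeb2 Id2 DKO arrays, an order whose share over all genes was not counted. The log2 difference was -0.53 [-0.78 to -0.28] from WT, -0.34 [-0.58 to -0.09] from Zeb2 KO and 0.52 [0.25 to 0.79] from Zeb2 Id2 DKO. Simc1 was thus below WT in both double mutants, and lowest without Id2.

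Of the 6 genes, 1 rose and 1 fell between Zeb2 Id2 DKO and WT, where 1.43% of all genes were called (0.878% higher and 0.557% lower). Between Zeb2 Id2 DKO and Zeb2 KO 1 of 6 was called, against 0.497% of all genes (0.366% higher and 0.13% lower), and between Zeb2 KO and WT 0 of 6, against 0.0201%. In that last comparison 2 of the 6 had an unadjusted limma p under 0.05, beside 1474 of all 19938 genes. The members were chosen with all these values known, so the counts do not show that the region responds more than other regions.

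Across the gap from Sema4d to Simc1 lie 8 further measured genes, and limma called 0 of them in any comparison, with 0 at an unadjusted p under 0.05. Over all 19938 genes, 0.00502% to 1.43% were called in these comparisons, and 829 to 2292 genes were under that bar. With so few genes, nothing is read from the counts. Syk, the tyrosine kinase that signals below Clec9a, sits 2 places from Nfil3 and next to Auh. It read 8.90 and 8.77 in Nfil3 Zeb2 DKO, against 8.94, 9.12 and 8.93 in Zeb2 KO (log2 -0.16 [-0.38 to 0.06], limma adjusted p = 0.704). Gadd45g, a stress-induced growth regulator, varied more. It read 9.04 and 8.37 in Nfil3 Zeb2 DKO, against 8.32, 7.81 and 8.33 in Zeb2 KO (log2 0.55 [-0.05 to 1.15], limma adjusted p = 0.626), and 8.01, 8.40 and 8.96 in WT. The highest Gadd45g array was thus of Nfil3 Zeb2 DKO and the lowest of Zeb2 KO, and the WT arrays overlapped with both groups.

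Sptlc1, a subunit of the first enzyme of sphingolipid synthesis and 2 places away on the Ror2 side, read 7.90 and 8.10 in Nfil3 Zeb2 DKO, against 8.32, 8.21 and 7.51 in Zeb2 KO. Thoc3, an mRNA export factor, read 9.02 and 8.75 in Nfil3 Zeb2 DKO, against 9.14, 9.24 and 8.37 in Zeb2 KO. In Sptlc1 and Thoc3, as in Auh, Zeb2 KO replicate 3 was the lowest of all arrays. The log2 differences of both were near 0 (-0.02 [-0.45 to 0.42] and -0.03 [-0.51 to 0.44], limma adjusted p = 0.990 and 0.981). The GTPase gene Diras2 (0.11), the homeobox gene Msx2 (0.00), the dopamine receptor gene Drd1 (0.05) and the synaptic gene Cplx2 (0.05) had small log2 differences between the same groups.

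Over the 25 measured genes on either side of Nfil3, Auh stood alone in size. Leaving out the 6 members, the other 44 genes had log2 differences between -0.36 (Rnf44) and 0.55 (Gadd45g) for Nfil3 Zeb2 DKO against Zeb2 KO. Their median was 0.00, beside 0.02 over all genes. The limma test called 0 of the 44 (3 at an unadjusted p under 0.05), where 0.00502% of all genes were called, namely Nfil3 itself. Over all 19938 genes 1695 were under that unadjusted bar. Against the mean of the other genotypes the 44 ranged from -0.28 to 0.42 with a median of 0.01, and 0 were called (2 at an unadjusted p under 0.05), against 0.015% of all genes. There 1678 of all 19938 genes had an unadjusted p under 0.05. In that contrast the 3 called genes of the whole table were Nfil3, Id2 and Adgrl2, of which Id2 is deleted in a group that enters the mean.

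Both Nfil3 Zeb2 DKO arrays lay outside the range of the other 8 in 5 of the 50 neighbours, beside 6.41% of all genes. Apart from Auh these were 2310081J21Rik and Eif4e1b, which were higher, and Nutm2 and Zfp346, which were lower. Their gaps were at most 0.09 log2, against 1.08 for Auh. Nfil3 Zeb2 DKO against Zeb2 Id2 DKO called 0 of the 44 neighbours that are no members (limma, 4 at an unadjusted p under 0.05, beside 2292 of all 19938 genes). Auh and Sema4d were past the threshold there, in a comparison that called 0.792% of all genes (0.211% higher and 0.582% lower), and nothing is read from this since the comparison bore on their choice.

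**Figure D3:**
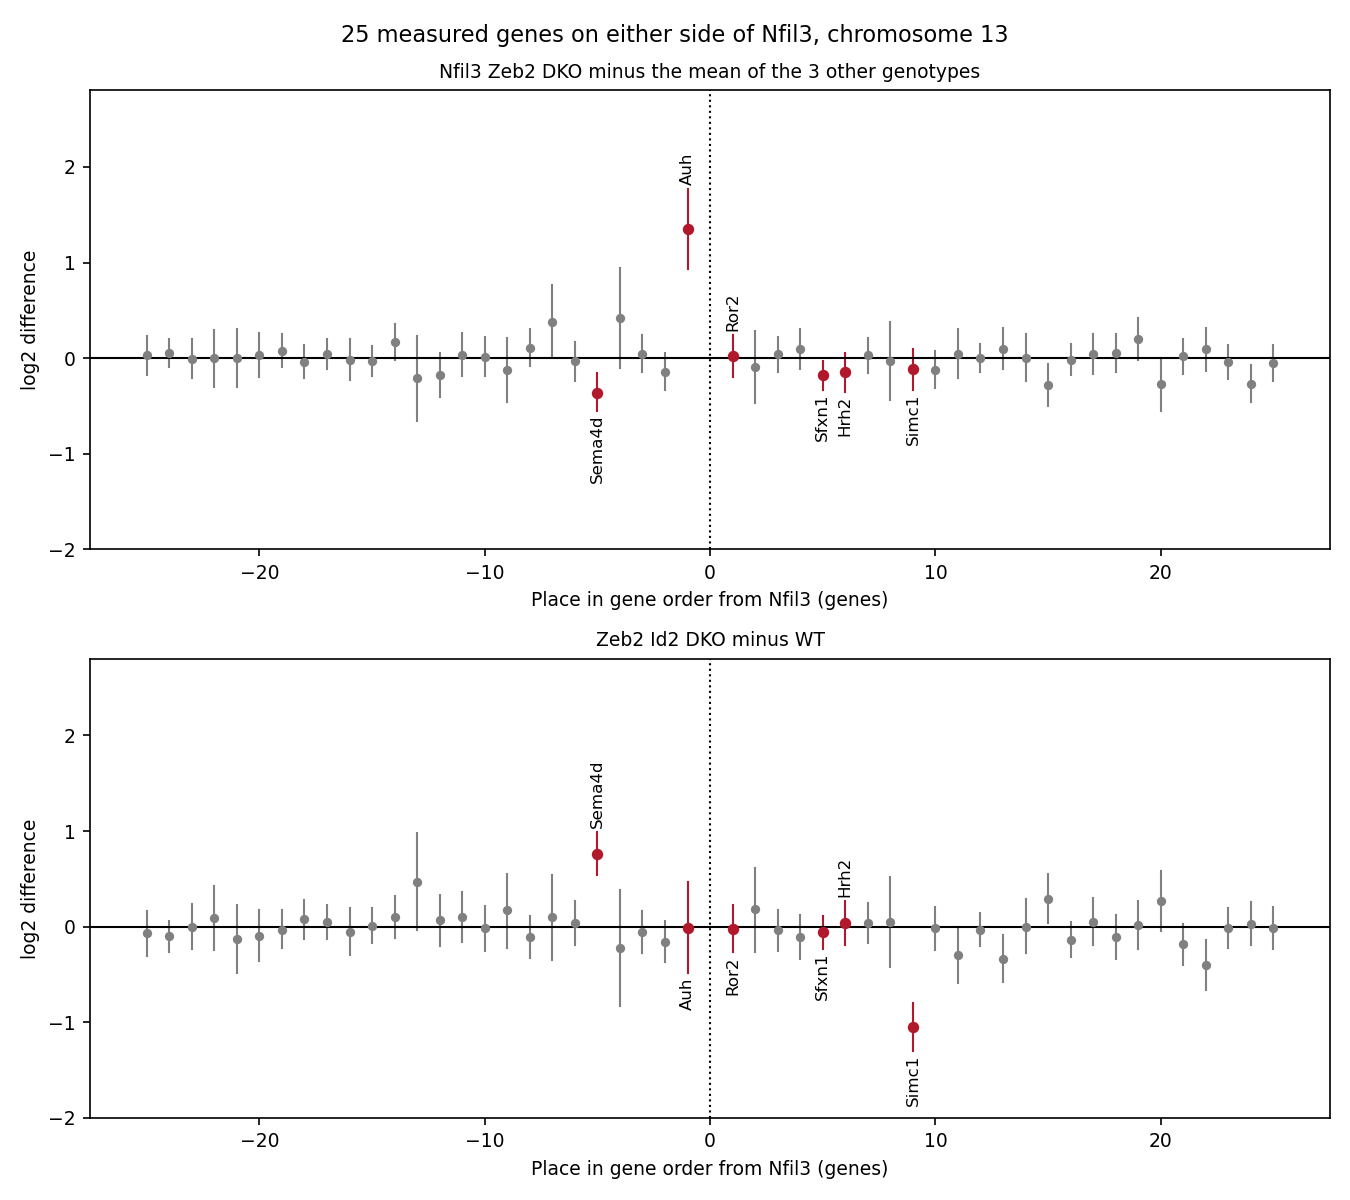
Log2 difference (vertical axis, with 95% intervals of the limma fit) against place in gene order from Nfil3 (horizontal axis, in genes) for Nfil3 Zeb2 DKO minus the mean of the 3 other genotypes (upper) and Zeb2 Id2 DKO minus WT (lower), with the 6 members in red and Nfil3 left out. In the upper panel Auh stands at 1.35 while the 44 grey genes lie between -0.28 and 0.42, and in the lower panel Sema4d (0.76) and Simc1 (-1.05) stand apart.

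The same count was made around the other deleted genes. Of the 50 nearest measured genes around Id2, 2 rose between Zeb2 Id2 DKO and Zeb2 KO and 0 fell. In that comparison 0.497% of all genes were called (0.366% higher and 0.13% lower). The 2 neighbours were Rsad2 (log2 1.32 [0.87 to 1.77], limma adjusted p = 0.0187) and Cmpk2 (1.18 [0.79 to 1.56], limma adjusted p = 0.0144), both known as interferon-stimulated genes and 2 and 3 places from Id2. Both also passed against WT (log2 1.22 for Rsad2 and 1.61 for Cmpk2, limma adjusted p = 0.0157 and 0.00157). Against Zeb2 KO both calls were lost without Zeb2 Id2 DKO replicate 2 or Zeb2 KO replicate 2, and 1 was left without Zeb2 KO replicate 1. Around Zeb2, limma called 0 of 50 genes between Zeb2 KO and WT (4 at an unadjusted p under 0.05), beside 0.0201% of all genes (1474 at an unadjusted p under 0.05). The differences lay between -0.49 and 0.42. Between Zeb2 Id2 DKO and WT limma called 1 of these 50 (7 at an unadjusted p under 0.05). That was the mitotic kinase gene Nek6 at place -17 in gene order from Zeb2 (log2 0.63 [0.44 to 0.83], limma adjusted p = 0.00695). Over all 19938 genes 1.43% were called there (2028 at an unadjusted p under 0.05). The count around Zeb2 is near that share and is not read as a result about this neighbourhood. Rsad2, Cmpk2 and Nek6 are named after their values were seen. The genes directly next to Id2 and Zeb2 were not called in these comparisons, and whether the 3 neighbourhoods differ was not tested.

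**Figure D4:**
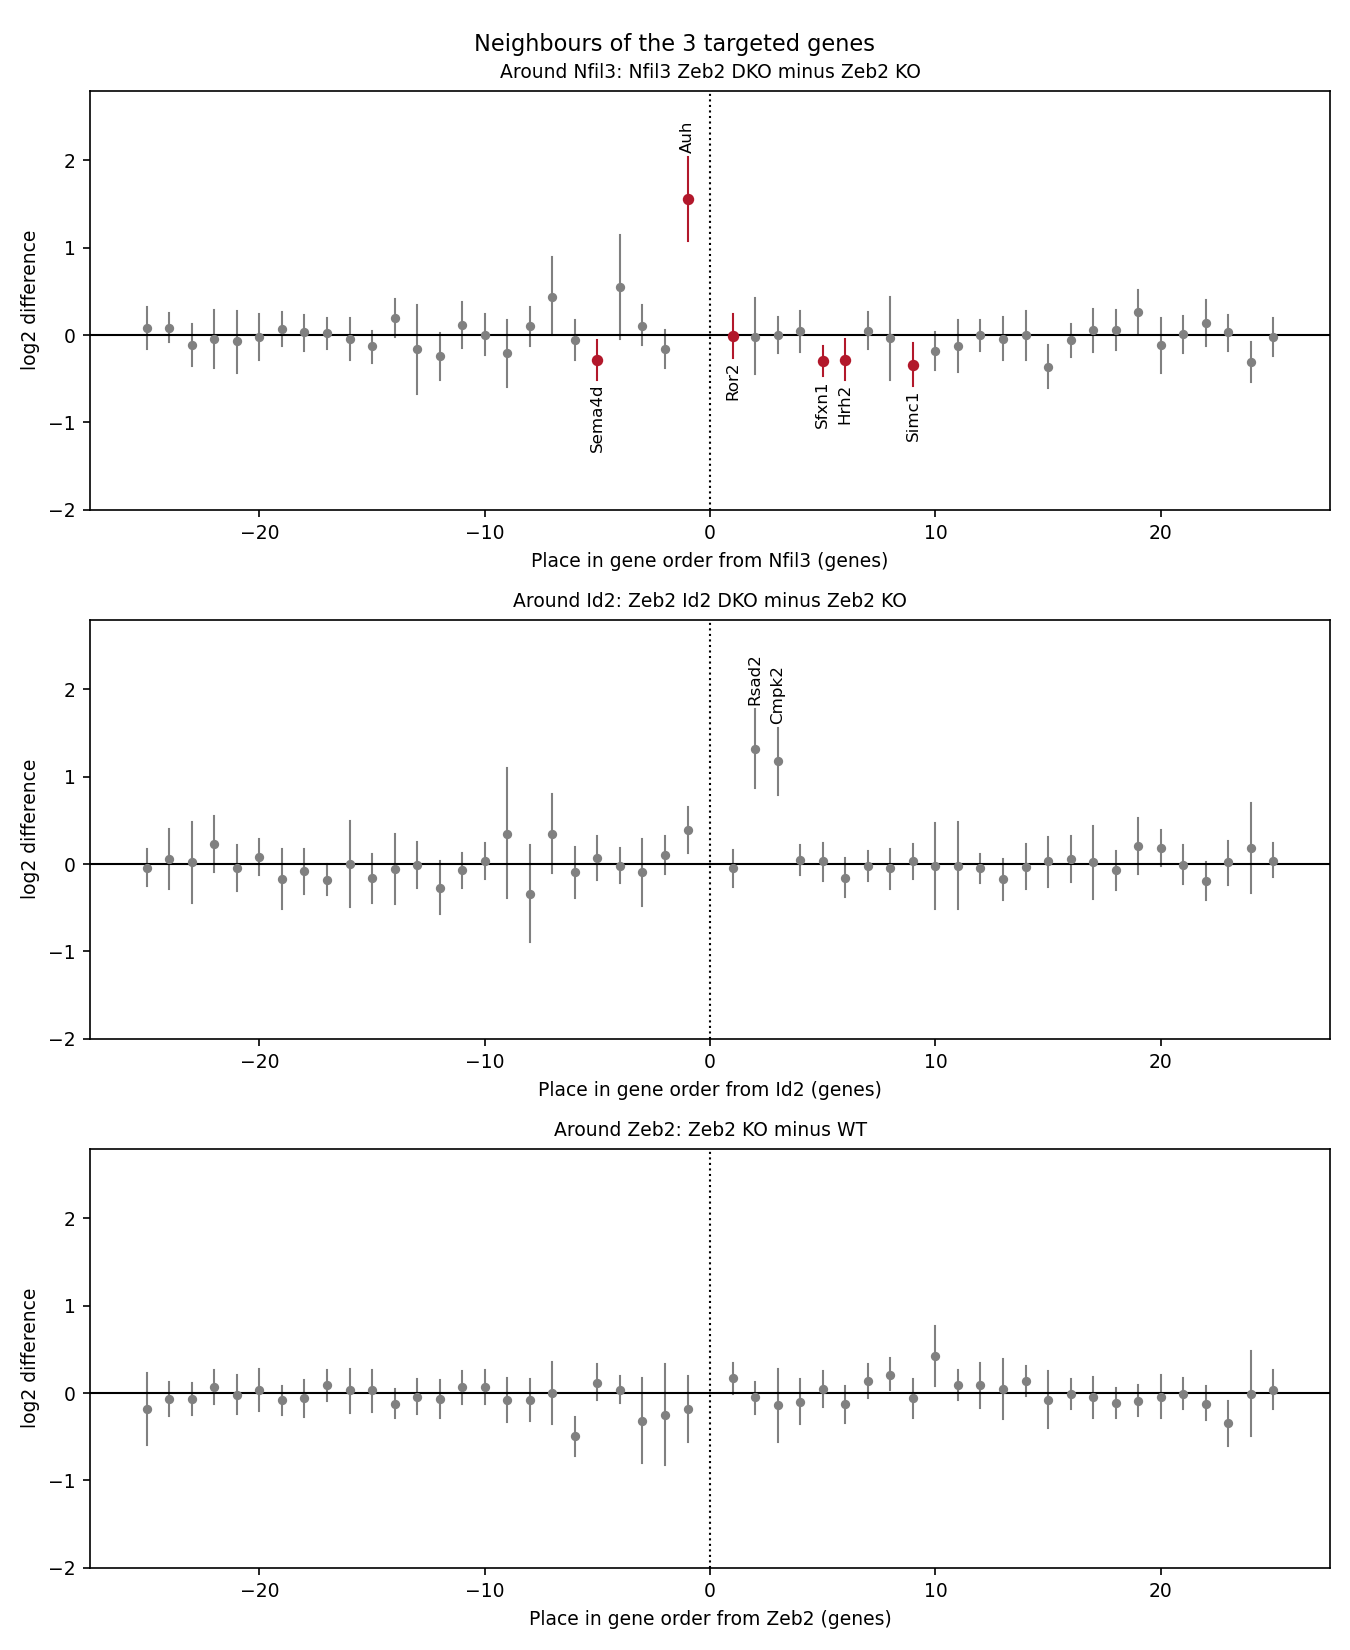
Log2 difference (vertical axes, with 95% intervals of the limma fit) of the 25 measured genes on either side of Nfil3 (Nfil3 Zeb2 DKO minus Zeb2 KO), Id2 (Zeb2 Id2 DKO minus Zeb2 KO) and Zeb2 (Zeb2 KO minus WT), by place in gene order, with the targeted gene left out. Auh (1.56) stands out next to Nfil3, Rsad2 (1.32) and Cmpk2 (1.18) near Id2, and no gene around Zeb2 exceeds 0.49 in size.

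Genes that work with the 6 members gave few calls. Of 78 measured partner genes, limma called 0 in each comparison that includes Nfil3 Zeb2 DKO, in Zeb2 KO against WT and in Zeb2 Id2 DKO against Zeb2 KO, with 6 to 18 at an unadjusted p under 0.05. Over all 19938 genes, 0.00502% to 0.792% were called in these comparisons, and 829 to 2292 genes were under that unadjusted bar. Partner genes were thus under it more often than genes at large, and the reason was not tested. In leucine catabolism, the pathway of Auh, 0 of 14 genes passed between Nfil3 Zeb2 DKO and the mean of the other genotypes (2 at an unadjusted p under 0.05), and the median log2 difference was -0.01, beside 0.02 over all genes. The smallest p-values there belonged to Ppm1k, a phosphatase of the branched-chain ketoacid dehydrogenase (-0.21 [-0.37 to -0.05], limma adjusted p = 0.469), and to Bckdha, a subunit of that enzyme (-0.20 [-0.39 to -0.01], limma adjusted p = 0.561). Of 9 AU-rich element binding proteins 0 passed (3 at an unadjusted p under 0.05), with a median of -0.20, Khsrp at -0.23 and Zfp36l1 at -0.33. The smallest p-values of the remaining lists in that comparison belonged to Vangl1 (-0.24) and Wnt5b (0.19), Sema4a (-0.30) and Sema4f (-0.39), Sfxn3 (-0.44) and Mthfd1l (-0.18), and Nsmce1 (-0.19) and Smc6 (-0.13), with no call among them.

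Between Zeb2 Id2 DKO and WT 2 of the 78 partner genes rose, where 0.878% of all genes were called higher. With so few genes, nothing is read from the count. Vangl2, a planar polarity protein of the Ror2 and Wnt5a list (1 of 15 called), read 7.07 and 6.82 in Zeb2 Id2 DKO, against 6.35, 6.37 and 6.27 in WT (log2 0.61 [0.39 to 0.84], limma adjusted p = 0.0148). Met, the hepatocyte growth factor receptor and a partner of plexin B proteins in the Sema4d list (1 of 11 called), read 9.95 and 10.11 in Zeb2 Id2 DKO, against 9.24, 9.10 and 9.14 in WT (log2 0.87 [0.54 to 1.20], limma adjusted p = 0.0185). The sideroflexin relative Sfxn3 had a log2 difference of 0.67 [0.30 to 1.03] that did not pass (limma adjusted p = 0.0934). Of 11 genes of the SMC5/6 list limma called 0 (0 at an unadjusted p under 0.05), with a median of 0.06, beside -0.01 over all genes. The other genes with the smallest p-values in their lists, none of them called, were Bdh1 (0.59) and Ppm1k (0.27), Zfp36l1 (0.24) and Zfp36l2 (0.23), Sfxn5 (0.24), Hrh1 (-0.43) and Slc18a2 (0.13), and Smc6 (0.16) and Slf1 (0.22).

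In the histamine list, limma called 0 of 6 genes in any comparison (0 to 3 at an unadjusted p under 0.05). Hdc, which makes histamine, read 6.48 and 7.00 in Nfil3 Zeb2 DKO, against 8.12, 7.82 and 7.35 in Zeb2 KO (log2 -1.02 [-1.58 to -0.46], limma adjusted p = 0.374). The histamine receptor gene Hrh4 read 5.32 and 5.36 in Nfil3 Zeb2 DKO, against 4.71, 5.00 and 4.71 in Zeb2 KO (log2 0.53 [0.24 to 0.82], limma adjusted p = 0.374). In both genes the Nfil3 Zeb2 DKO arrays lay outside the Zeb2 KO range, and the share of all genes that do so was not counted.

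Markers of other cells moved with the genotypes. The summed intensity of 10 neutrophil genes was 2730 to 4500 in Nfil3 Zeb2 DKO, 5700 to 15700 in Zeb2 Id2 DKO, 7120 to 16300 in Zeb2 KO and 1430 to 1840 in WT. Summed over 6 genes, T cell markers read 1030 to 1110 in Nfil3 Zeb2 DKO, 756 to 843 in Zeb2 Id2 DKO, 765 to 916 in Zeb2 KO and 787 to 1010 in WT. NK cell markers, also 6 genes, read 549 to 559 in Nfil3 Zeb2 DKO, 307 to 313 in Zeb2 Id2 DKO, 356 to 403 in Zeb2 KO and 371 to 508 in WT. Both sums, and the Auh level, were highest in Nfil3 Zeb2 DKO. In no other marker list was the highest array of that group. There the erythroid sums were 532 to 1140, against 739 to 1430 in WT, and the B cell sums 744 to 819, against 816 to 2010. Red pulp macrophage sums were 716 to 743 there and 687 to 994 in WT, and cDC2 sums 449 to 601 and 399 to 644. Between Nfil3 Zeb2 DKO and Zeb2 KO limma called 0 of 64 markers over all lists (31 at an unadjusted p under 0.05). Of all 19938 genes it called 1 (1695 at an unadjusted p under 0.05). Markers were thus under that bar more often than genes at large. The part of these markers in the Auh level was not tested.

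Between Zeb2 Id2 DKO and WT, where Sema4d rose and Simc1 fell, 7 of 10 neutrophil, 2 of 7 erythroid and 2 of 5 plasmacytoid dendritic cell markers rose, while 3 of 6 T cell, 2 of 7 red pulp macrophage, 1 of 6 NK cell and 1 of 10 cDC1 markers fell. Over all genes 0.878% were called higher and 0.557% lower, and the NK cell and cDC1 counts rest on 1 gene each. The cDC1 marker was Cadm1 (log2 -0.87 [-1.10 to -0.65], limma adjusted p = 0.00225). The plasmacytoid sums were 4370 to 4440 in Zeb2 Id2 DKO and 2520 to 2730 in WT. The erythroid sums were 2190 to 2590 in Zeb2 Id2 DKO and 739 to 1430 in WT. Their part in the changes of Sema4d and Simc1 was not tested, and in sorted bulk samples fewer cells of a type and less RNA per cell cannot be told apart. RMA intensities have no zero, so no marker can be called absent. The summed intensity of the 10 cDC1 markers was 28300 to 30000 on all arrays.

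Over the 10 arrays, the genes whose profile was most like that of Auh were Rida and Tlr6 (Pearson r = 0.93 each), Olfr147 and Itpripl1 (0.91 each) and Catsper3 (0.89). Rida, a reactive intermediate deaminase, read 6.78 and 6.85 in Nfil3 Zeb2 DKO, against 6.45, 6.33 and 5.90 in Zeb2 KO. Catsper3, a sperm calcium channel gene, is also on chromosome 13, 50 places from Nfil3, and all its arrays read 4.15 to 4.37. The most opposed profiles were those of Aig1 and Xpo6 (r = -0.96 each), Taf4 (-0.95), Mcph1 and Rsrc1 (-0.94 each). Their log2 differences between Nfil3 Zeb2 DKO and the mean of the other genotypes were between -0.35 (Rsrc1) and 0.45 (Rida), against 1.35 for Auh. Since the arrays fall into genotypes with the Nfil3 Zeb2 DKO pair apart in Auh, r is a description only.

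Among the members, the correlation with Auh over the 10 arrays was -0.74 for Sfxn1, -0.70 for Hrh2, -0.32 for Ror2, -0.31 for Sema4d and -0.29 for Simc1. Sema4d and Simc1 ran opposite to each other (r = -0.77), with Zeb2 Id2 DKO at the far end of both. Ror2 stayed between 6.53 and 6.95 on all arrays.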

How the data were processed

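The authors ran RMA in Affymetrix Expression Console, per the submitters' processing notes, and deposited intensities on a linear scale (5.05 to 16019), of which log2 was taken. The sources used here do not give their annotation. Of 28853 probe sets, 21789 named 1 gene, 1621 several and 5443 none. For each gene the probe set with the highest mean was used (19938 genes, none filtered). Gene order came from RefSeq GRCm38.p6, whose gene table matched 21698 probe sets. All 10 arrays entered a model with 1 mean for each genotype, fitted with limma 3.58.1 in R 4.3.3 (6 residual degrees of freedom, eBayes prior 4.47), p-values were adjusted by Benjamini-Hochberg over all genes, and genes were called at an adjusted p under 0.05. The test was checked on simulated data. The median 95% interval reached 0.21 to 0.26 log2 to either side, which the number of arrays limits. No arrays were identical.

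The members, neighbourhoods, partner lists and markers were chosen with earlier results of these data known. Named were the 6 members, the targeted genes, all measured genes between Sema4d and Simc1, neighbours of Nfil3 called in Nfil3 Zeb2 DKO comparisons, partner genes called (with none called, the 2 of smallest p in a list, given for 2 comparisons), and the 5 genes most and least like Auh. Promoters are from RefSeq. Alternatives covered probe set averaging, a filter on dim genes, quantile normalization, fits on the compared groups alone, the replicate number as a block, each array left out, and 10 or 50 neighbours a side.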

Additional observations from a re-analysis of the deposited data

How the results depend on the processing

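Over 14 alternatives, the Auh difference between Nfil3 Zeb2 DKO and the mean of the other genotypes stayed between 1.26 and 1.41. The count of called neighbours of Nfil3 was 0 in each alternative but 1. Without Zeb2 KO replicate 3 it was 1 (0 to 1 over arrays left out), both against Zeb2 KO and against that mean. That gene was Auh, and nothing is read from this call, since Auh was chosen by its level in Nfil3 Zeb2 DKO. Over all genes, the calls against the mean were 2 to 116 with an array left out (10 without Nfil3 Zeb2 DKO replicate 2, 7 and 5 without Zeb2 Id2 DKO replicate 1 or 2, and 116 without Zeb2 KO replicate 3). Against Zeb2 KO they were 1 to 106 (8 without Nfil3 Zeb2 DKO replicate 2, 4 without WT replicate 1 and 106 without Zeb2 KO replicate 3). Around Id2 the called genes numbered 0 with just the compared arrays and 0 to 2 with an array left out, and around Zeb2, between Zeb2 KO and WT, 0 in each alternative; the call of Nek6 there between Zeb2 Id2 DKO and WT was not recomputed. For Sema4d, Zeb2 Id2 DKO minus WT gave 0.31 with its probe sets averaged and 0.67 to 0.84 with an array left out. That of Simc1 was -1.18 to -0.92 over all alternatives and passed in each. The cause of these changes was not tested.

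The replicate numbers share no stated animal or day. Arrays of the same number deviated together at r over 0.1 in 1 of 13 pairs (-0.31 to 0.16), and 4 of 10 arrays correlated best with their own number. With the replicate block, 5 genes were called against the mean and 1 around Id2. In the comparisons without Nfil3 Zeb2 DKO the block changed no call of a member. Member calls between Nfil3 Zeb2 DKO and Zeb2 Id2 DKO under the block are not given. The fit on compared arrays was not run for the mean of the other genotypes, where it equals the fit on all arrays. Of 624 recomputed member differences, 18 changed sign, each for a difference of at most 0.07 in size as reported.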
